A study of Mus musculus with 13 samples.

Results

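The IMP1 pull-down was compared with its control in mouse embryonic fibroblasts (MEFs), connective tissue cells grown from the embryo. The members are the 3 libraries labelled IMP1 IP and the 3 labelled RNA IP IgG, chosen by their titles, and they make up 6 of the 13 samples of the series. In RNA immunoprecipitation (IP) an antibody draws a protein out of a cell lysate together with the RNA bound to it, and immunoglobulin G (IgG) with no such target gives the RNA carried along as background. The labels give the age E12.5 for every sample and growth in DMEM with fetal serum. One treatment text, deletion of IMP1 or IMP2, stands on all samples, and the genotype of the IP lysates and the antibody are not stated in it. Nothing in the labels ties the replicates to separate cultures, so p-values measure only the spread between these libraries, which may be technical.

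IMP1, also called IGF2BP1 or ZBP1, belongs to the insulin-like growth factor 2 mRNA-binding proteins. These proteins carry RNA recognition motifs and KH domains, sit on messenger RNAs in cytoplasmic granules, and act on the transport, stability and translation of their clients. Beta-actin, H19 and Igf2 are classic RNAs of the family, and its members are abundant in the embryo and scarce in most adult tissues.

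Gene counts came to 13907917, 11840189 and 14548720 in IgG IP and to 18938144, 17704900 and 18057296 in IMP1 IP. Levels below are in CPM, counts brought to a common library total, scaled by the trimmed mean of M-values (TMM), which sets the typical gene equal between libraries. In such bulk libraries a level is a share of the RNA sequenced: more of an RNA and less of the others cannot be told apart, nor can fewer cells of a type and less RNA per cell. CPM does not correct for transcript length, so levels are compared between groups and not between genes. Log2 CPM correlated across 8605 genes at 0.9974 to 0.9983 (Pearson's r) within a group and at 0.9699 to 0.9714 between groups, although genes are not independent replicates. A first principal component separated the groups and held 92.2% of the variance. Counts of 2 replicates of a group differed by 1.15 to 2.79 times the sampling variance, and IMP1 IP 1 stood furthest from its partners. A ratio near 1 cannot tell separate preparations from repeated sequencing of 1 preparation. The spread between replicates beyond sampling was 1.84% in the fit (common biological coefficient of variation).

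The cells carried the markers of their label. Of 16 fibroblast markers 15 passed the filter on low counts, all but Lum, and their summed level was 35500 to 36200 CPM in IMP1 IP and 23000 to 23500 CPM in IgG IP. The 12 higher markers were led by Col1a2, Postn and Fbn1, and 3 were lower. In the most abundant decile of protein-coding genes, where the median abundance of this list lies, 82.0% were higher. Markers of other cell types were scarce, apart from the neural marker Map2 at 47.65 CPM in IMP1 IP and 64.34 in IgG IP on average. The 8 macrophage markers summed to 12.8 to 14.7 CPM in IMP1 IP and 18.7 to 19.5 CPM in IgG IP, with Adgre1 and Tyrobp at 0 counts. Of the 4 tested, Csf1r (-0.75), Cd68 (-0.66) and Cd14 (-0.46) were lower and Lyz2 was not called (0.34). The 6 endothelial markers summed to 16.2 to 18.6 and 10.0 to 10.3 CPM, nearly all of it Kdr (0.91), with Tek not called (0.76), and the 6 epithelial markers stayed under 0.42 CPM in sum. Neural markers, mostly Map2, summed to 51.2 to 56.0 CPM in IMP1 IP and 67.9 to 73.9 in IgG IP. Tubb3 was not called, and Sox2 (-0.60) and Map2 (-0.44) were lower in IMP1 IP. The 6 skeletal muscle markers summed to 2.82 to 3.67 CPM in IMP1 IP and 11.6 to 12.2 in IgG IP, nearly all of it the giant muscle protein Ttn. Of the 7 erythroid markers, Alas2 alone had counts, and it was lower in IMP1 IP at 0.5204 CPM against 3.915 on average (-2.90). The part of these cell types in the results was not tested.

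The make-up of the libraries was compared first, because it bears on every fold change. IMP1 IP held mostly messenger RNA. Protein-coding genes took 98.59%, 98.72% and 98.75% of its gene counts, against 87.78%, 86.9% and 87.04% in IgG IP. The difference lay largely in 1 gene, Gm26917, a predicted gene that can collect ribosomal RNA reads. It took 0.4577% ± 0.0621 (SD, n = 3) of the gene counts in IMP1 IP and 10.9% ± 0.493 in IgG IP. Long non-coding RNAs took 0.3316% ± 0.00179 against 1.088% ± 0.0153, and pseudogenes 0.03944% against 0.07088%. Outside the gene counts, records that lay in no annotated gene were 7.557% ± 0.118 of all records in IMP1 IP and 24.6% ± 0.507 in IgG IP. Records over several genes were 1.995% against 6.168%, while records aligned to several places were 22.1% ± 0.928 against 17.28% ± 0.0481. The groups overlapped in none of these 14 measures. With 3 libraries against 3 the exact two-sided permutation test cannot go below p = 0.1, and each measure reached that value, also after adjustment over the 14.

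**Figure D1:**
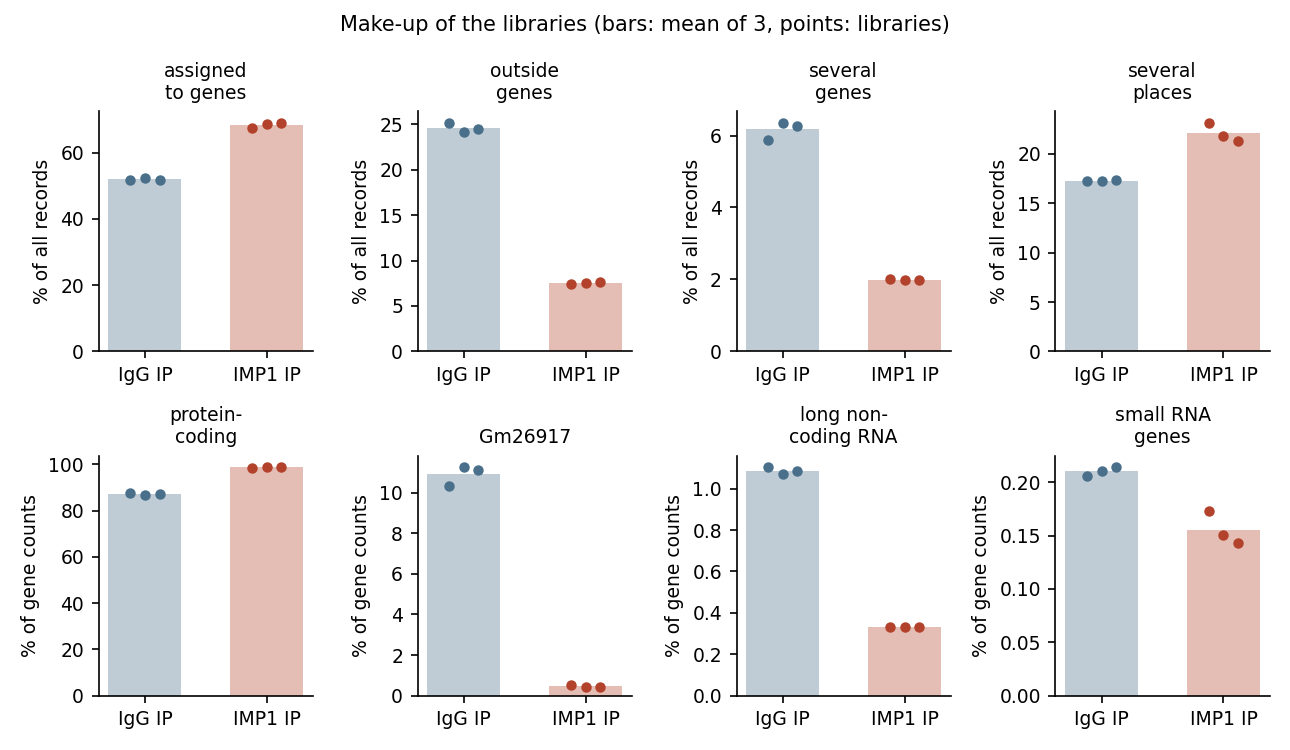
Each panel plots 1 share in percent, with bars at the mean of 3 libraries and a point for each library; the upper row gives shares of all records and the lower row shares of the gene counts. Protein-coding genes fill 98.69% of the gene counts in IMP1 IP and 87.24% in IgG IP, and Gm26917 takes 10.9% in IgG IP.

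Of 13573 genes tested by edgeR's quasi-likelihood fit on the 6 libraries, 4566 were higher in IMP1 IP (33.6% of those tested) and 4752 were lower (35%) at an adjusted p under 0.05. These 2 percentages are the background over all genes tested, and they do not hold at every abundance. Among protein-coding genes the share higher ran from 1.58% in the least abundant decile to 82.0% in the most abundant. Large gains were rare: 74 genes (0.545%) were at least 2-fold higher, while 1593 (11.7%) were at least 2-fold lower. Protein-coding genes were 58 of the 74 and 612 of the 1593. Of the rest of the 1593, 583 had no RefSeq match and 261 were lncRNA genes. Of 786 genes tested without a RefSeq match, 83.2% were lower, and scarce ones could pass the filter on their level in IgG IP alone. The median log2 fold change was -0.0338 over all genes tested, and the median size was 0.4687 among those called. The division into higher and lower depended on the scaling. The share of calls on the higher side was 49.0% with TMM, 50.1% with DESeq2's size factors and 43.6% with TMM from protein-coding genes. It was 33% with upper quartile scaling, 34.3% with total counts and 19.8% with total counts that left out Gm26917, Mir6236 and Lars2. These last 3 scalings shifted the median of all genes by -0.151, -0.138 and -0.301. The 3 genes left out did not share a direction. Gm26917, by far the most abundant, was lower in IMP1 IP (4800 CPM against 104000 in IgG IP on average). Lars2 (86.39 against 37.54) and Mir6236 (24.8 against 4.707) were higher. They are called collectors below because their loci can collect ribosomal RNA reads. Whether they did so here was not tested. Under all 6 scalings 2079 genes were higher and 4636 lower, and "under every scaling" below refers to these 6. The other scalings moved genes largely together and mostly downward, so nearly every lower call was bound to hold, 4636 of 4752. A gene lower under every scaling thus gains no support from that. For higher genes the strictest scaling, total counts without the collectors, decided alone, with the same 2079.

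**Figure D2:**
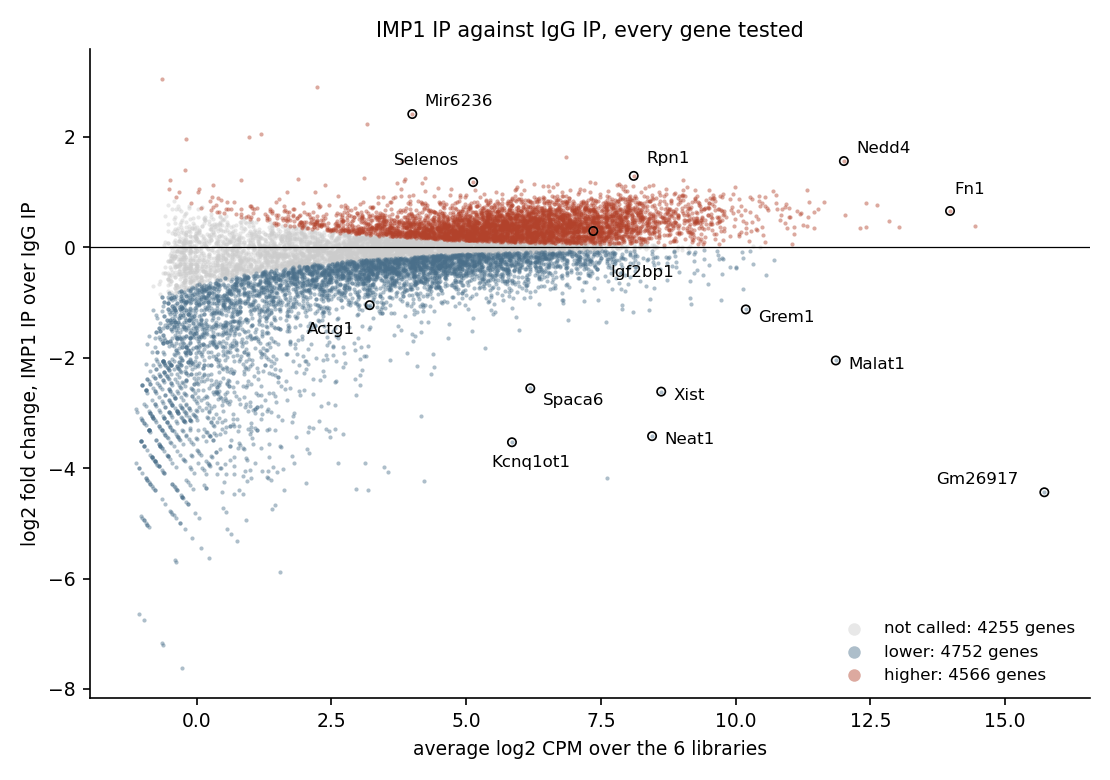
Each point is 1 of 13573 genes, placed by its average log2 CPM over the 6 libraries and its log2 fold change, IMP1 IP over IgG IP, with TMM scaling; red points were called higher, blue points lower and grey points neither. Named genes are ringed, and the wide lower fan at low abundance holds many of the 1593 genes at least 2-fold lower.

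The fold change rose with abundance. Across 12025 protein-coding genes it correlated with average log2 CPM at Spearman's rho 0.527, a description across genes that share the same 6 libraries. In the most abundant decile 82.0% were higher, with a median log2 fold change of 0.408, and in the least abundant decile 1.58% were higher, with a median of -0.534. A scarce gene could pass the filter on its level in 1 group alone. Genes with at least 1 count averaged 18950 in IMP1 IP and 21150 in IgG IP. The part of this in the low deciles, which also serve as baseline for scarce genes, was not tested. Among 4927 protein-coding genes with average log2 CPM of at least 5, rho with abundance was 0.279. Across all 12025 the fold change also rose, less steeply, with the genomic span of the gene (rho 0.256), from a median of -0.176 in the shortest decile to 0.195 in the ninth and 0.132 in the longest. Span includes introns and is not the length of the message, which was not analysed here. Because many of the groups below consist of abundant messages, the medians of lists described by one are also given relative to protein-coding genes in the same decile of abundance, a comparison added after the trend was seen.

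**Figure D3:**
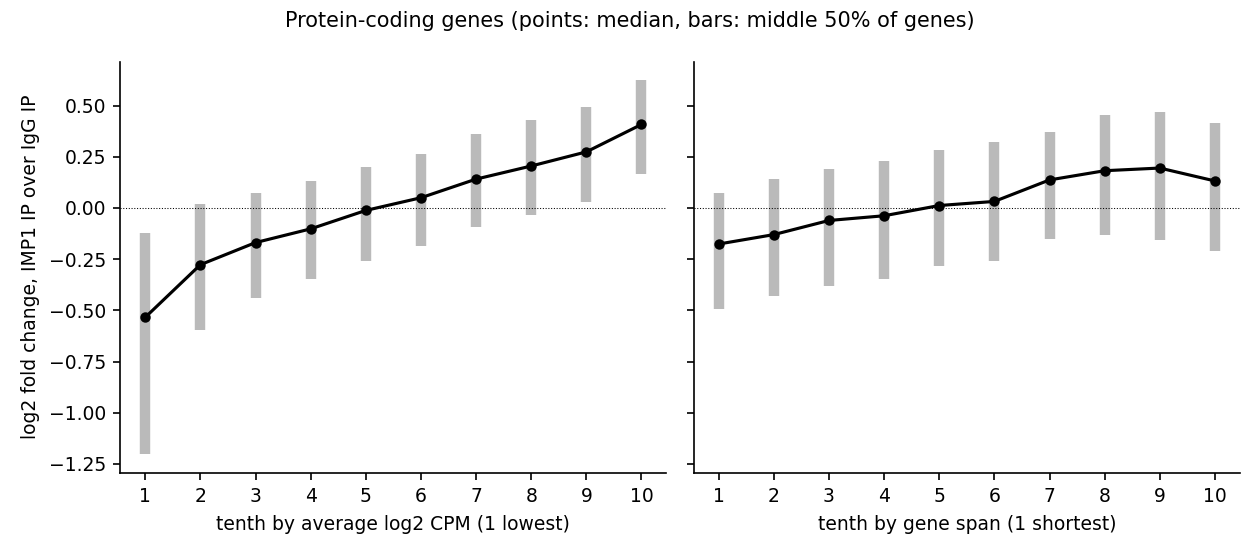
Points give the median log2 fold change, IMP1 IP over IgG IP, of protein-coding genes in deciles by average log2 CPM (left) and by genomic span (right), and bars the middle 50% of genes. The median runs from -0.534 to 0.408 with abundance and from -0.176 to 0.195 with span.

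Among abundant protein-coding genes (average log2 CPM 5 or more, groups apart) the highest fold change was that of the ubiquitin ligase Nedd4 (ENSMUSG00000032216; GRCm38.p6, chromosome 9, 72662331 to 72749851), which acts on membrane receptors and channels. It stood at 6196, 6143 and 6154 CPM in IMP1 IP and at 2085, 2067 and 2108 CPM in IgG IP. The 2 groups lay far apart, with a log2 fold change of 1.56 (SE 0.0176, edgeR adjusted p = 1.34e-43). Of 11 Nedd4 family ligases and adaptors, 8 were higher and 2 lower, with a median of 0.386 (0.181 above genes of the same abundance), and 5 were higher under every scaling. Hecw2 (0.69, at under 3 CPM and not under every scaling), Wwp1 (0.55) and Smurf2 (0.54), which marks TGF-beta receptors and Smads for destruction, followed Nedd4. The 2 lower members, named after their values were seen, were the adaptors Ndfip1 (-0.21) and Ndfip2 (-0.29), small membrane proteins that recruit these ligases.

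Other genes among the 12 highest are given next. Rpn1, a subunit of the oligosaccharyltransferase that attaches glycans to new proteins, had 393.6, 382.6 and 383.3 CPM in IMP1 IP and 152.6, 158.2 and 162.1 CPM in IgG IP (log2 fold change 1.29, SE 0.0264, adjusted p = 4.89e-34). Pds5a, which opens the cohesin ring, had 723.1, 711.4 and 721.1 CPM against 315.6, 309.9 and 305.0 (log2 fold change 1.21, SE 0.0219). In both genes the spread within a group was small beside the gap between groups. Prkaa1, a catalytic subunit of the energy sensor AMPK, followed at a log2 fold change of 1.16. The linker histone gene Hist1h1e reached 1.15, and Npat, the coactivator of histone gene transcription, reached 1.14. Edem3, a mannosidase that sends misfolded glycoproteins to degradation, and Gapvd1, a regulator of endocytosis, both reached 1.13. Abca5, a lipid transporter of the lysosome, stood at 1.18, and Cd109, a surface protein that binds TGF-beta, at 1.14. Lars2 (1.201), a mitochondrial leucyl-tRNA synthetase whose locus can collect ribosomal RNA reads, differed from the others in its spread, at 109.6 CPM in IMP1 IP 1 and at 75.1 and 74.51 CPM in the other two. Without IMP1 IP 1 its log2 fold change was 0.998. All of these genes were higher under every scaling.

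**Figure D4:**
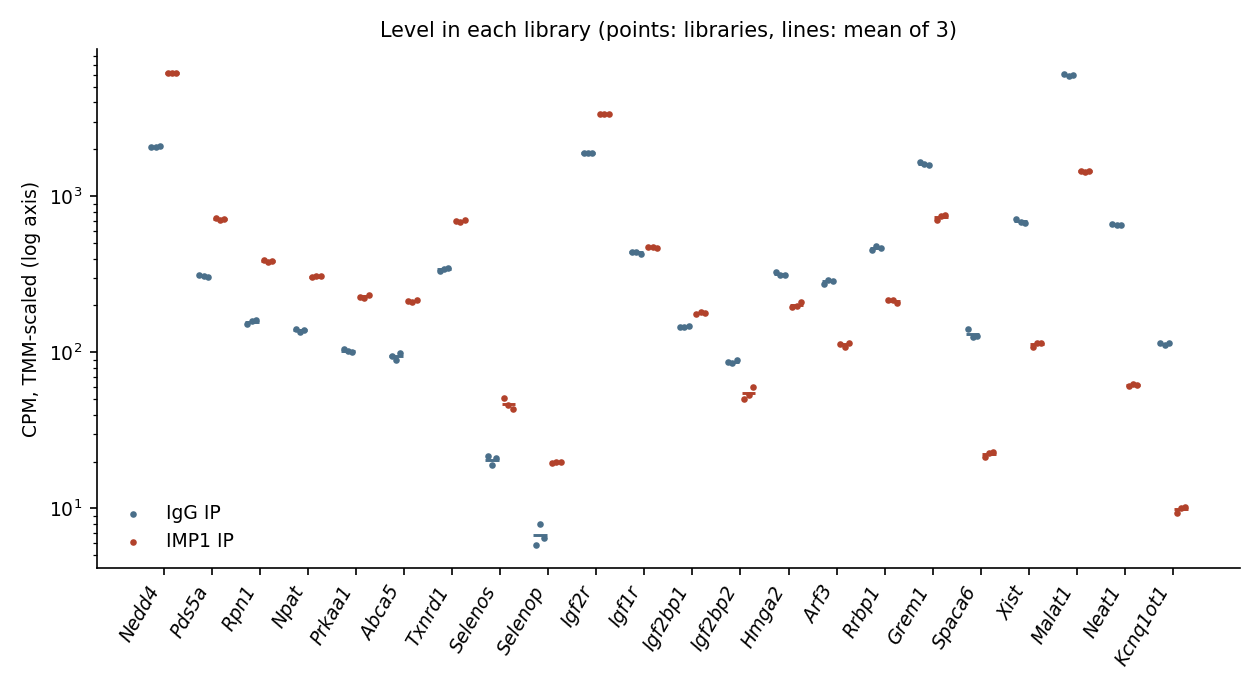
Points give the TMM-scaled CPM of each library on a log axis for 22 genes, with IgG IP in blue, IMP1 IP in red and lines at the mean of 3. Nedd4 through Igf2r and Igf1r and Igf2bp1 stand higher in IMP1 IP, although Igf1r and Igf2bp1 lose or turn that direction under other scalings, and Igf2bp2 through Kcnq1ot1 stand lower.

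Selenoproteins had the highest median among the lists with 5 or more members tested on all 6 libraries. That rank rested on single libraries: without IMP1 IP 1 the median was 0.531, and that of condensin subunits 0.548. Selenoproteins carry selenocysteine, inserted at a UGA codon through a hairpin in the message, and many act in redox control. Of 24 listed, 18 passed the filter, 16 were higher and none was lower, where 33.6% of all genes tested were higher. Their median was 0.535, or 0.53 above genes of the same abundance, and 10 were higher under every scaling. Selenop, a secreted selenium carrier, had 19.58, 19.94 and 19.85 CPM in IMP1 IP and 5.86, 7.935 and 6.493 CPM in IgG IP (log2 fold change 1.56, SE 0.0946, adjusted p = 3.46e-18). Selenos, a protein of the endoplasmic reticulum (ER) that takes part in the removal of misfolded proteins, had 50.77, 46.04 and 43.49 CPM against 21.6, 18.86 and 21.18 (log2 fold change 1.18). The thioredoxin reductases Txnrd3 (1.16) and Txnrd1 (1.03) followed, the latter at 694.9, 688.2 and 702.3 CPM against 333.7, 341.3 and 345.7. In each of these 4 genes the lowest IMP1 IP library lay above the highest IgG IP library. That is no added result, since they were chosen by the size of their called fold change. The 2 members not called were Gpx4, which protects lipids from oxidation, at 15.34 ± 1.06 CPM against 16.07 ± 1.54 (SD, n = 3), and Selenow, at 13.02 ± 0.744 against 13.29 ± 0.214. Both were named after their values were seen. Gpx2, Gpx3, the deiodinases Dio1, Dio2 and Dio3, and Selenov fell below the filter. Selenop, Selenos and Txnrd3 were among the highest genes in earlier results of these data, with which the list was chosen, so its direction is no independent evidence.

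The 7 factors that make and insert selenocysteine were described separately. Of these 5 were higher and Pstk, the kinase that primes the tRNA, was lower (-0.50), with a median of 0.304 (0.223 above genes of the same abundance). Sepsecs (0.69), the synthase, and Secisbp2l (0.63), a relative of the factor that binds the hairpin, were higher under every scaling. Sephs1 (0.30), Secisbp2 (0.30) and Eefsec (0.33) were higher with TMM but not under every scaling, and Trnau1ap was not called (-0.07).

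Of 28 ER folding and quality control genes, 26 were higher and none was lower (median 0.426, and 0.194 above genes of the same abundance), and 15 were higher under every scaling. Besides Edem3, the leading members were Uggt1 (0.94), the sensor of glycoprotein folding, Creld2 (0.85) and Sel1l (0.84), which anchors a ubiquitin ligase for misfolded proteins. Oligosaccharyltransferase subunits split: 7 of 12 were higher and 4 lower. Rpn1, Tusc3 (0.82) and, named after their values were seen, Rpn2 (0.56) and the catalytic Stt3b (0.46) were higher under every scaling. The subunits Dad1 (-0.84), Ost4 (-0.70), Krtcap2 (-0.59) and Tmem258 (-0.53) were lower under every scaling, Dad1 with 15.26, 14.32 and 14.38 CPM in IMP1 IP and 25.82, 25.83 and 27.22 CPM in IgG IP. The last pair of names was also chosen after the values were seen. The list's median was 0.19, but 0.151 below genes of the same abundance.

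Of 17 genes of the ER translocon and signal peptidase, 7 were higher and 8 lower, with a median of -0.092 (0.275 below genes of the same abundance) that came to -0.002 without IgG IP 2, -0.039 without IMP1 IP 1 and -0.058 without IMP1 IP 3. Ssr1, of the translocon-associated complex, was higher at 810 ± 6.53 CPM against 464.9 ± 3.97 (log2 fold change 0.80), and it was the only 1 of the 7 to stay higher under every scaling. The channel subunit Sec61g (-1.18, under 2 CPM on average), Ssr4 (-0.54) and the translocating chain protein Tram2 (-0.54) were lower, as was Sec61b (-0.53), named after its value was seen. Of 8 signal recognition particle genes tested (median 0.095, and 0.01 below genes of the same abundance), 3 were higher by small amounts, Srpr (0.25), Srp72 (0.10) and Srp68 (0.10), and each of these turned negative under total counts without the 3 ribosomal RNA collectors. Srp19 was lower (-0.40).

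Among 26 genes of the COPII and COPI coats, which carry cargo between the ER and the Golgi, 16 were higher and 7 lower (median 0.286, and 0.029 above genes of the same abundance). The coat proteins Copb1 (0.86), at 277.9, 278.9 and 278.0 CPM in IMP1 IP against 156.4, 155.0 and 148.5 in IgG IP, and Copb2 (0.77) led. Arf3, a small GTPase that recruits coats, went the other way, with 113.2, 109.1 and 115.1 CPM in IMP1 IP and 275.7, 292.6 and 288.8 CPM in IgG IP (log2 fold change -1.34, SE 0.0292, adjusted p = 3.59e-33). Its relatives Arf5 (-0.59) and Arf1 (-0.26), named after their values were seen, were lower too. Sec31b was also lower (-1.60), at under 2 CPM on average in each group. Of 36 lysosomal hydrolases tested, 25 were higher, 11 of them under every scaling, and 3 lower (median 0.257, and 0.085 above genes of the same abundance), with Man2b1 (0.72), a mannosidase, higher and with Ids (-0.68), the enzyme lost in Hunter syndrome, and Ctsk (-1.43, under 1 CPM on average) lower.

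Of the 10 largest gains in CPM, 3 were matrix genes. Fibronectin, Fn1, stood at 19100, 19810 and 20270 CPM in IMP1 IP and at 12510, 12610 and 12370 CPM in IgG IP (log2 fold change 0.66, SE 0.0183). The collagen chains Col1a2 (6969 ± 492 against 3990 ± 85, SD, n = 3) and Col1a1 (5044 ± 490 against 3348 ± 86.8) were also among the 10 genes with the largest gain in CPM. IMP1 IP 1 was the highest of its group for both collagens. No IMP1 IP library overlapped IgG IP, which adds little for genes chosen by the size of their gain. Of 40 collagen genes 30 passed the filter, of which 20 were higher and 6 lower (median 0.503, and 0.208 above genes of the same abundance). The members with the largest sizes were scarce and lower: Col4a4 (-1.77), Col20a1 (-1.62), Col17a1 (-1.61) and Col23a1 (-1.20) all lay under 2 CPM on average in IgG IP. Col5a2, which sets fibril width, was the highest at 1.02 and was named after its value was seen. Of 22 collagen-modifying enzymes 19 were higher and 2 lower (median 0.427, and 0.25 above genes of the same abundance). Pcolce (0.83), an enhancer of procollagen cleavage, Plod2 (0.77), a lysyl hydroxylase, and Adamts3 (0.88) were higher, and P4ha3, a prolyl hydroxylase subunit, was lower (-1.11). Of 13 basement membrane genes 11 were higher and none lower (median 0.497, and 0.223 above genes of the same abundance), led by Nid2 (0.73), Lama4 (0.72), Lama2 (0.69) and Lamb1 (0.69). Matrix proteases and their inhibitors were mixed, with 10 of 25 higher and 7 lower. Their median was 0.071, or 0.003 above genes of the same abundance, and came to 0.013, 0.015 and 0.043 without IgG IP 1, IMP1 IP 2 and IMP1 IP 1 and to 0.111 and 0.152 without IgG IP 2 and IgG IP 3. The membrane-anchored inhibitor Reck (0.84) and the scarce Mmp10 (1.06, not under every scaling) were higher, and the proteases Mmp24 (-1.82) and Adamts10 (-1.05) lower.

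Nedd4 and 6 further genes completed these 10. Ahnak, a giant scaffold protein, rose from 19210 ± 206 CPM in IgG IP to 25170 ± 872 in IMP1 IP (log2 fold change 0.39), and the actin crosslinker Flna from 4661 ± 50.9 to 7962 ± 26.0 (0.77). Myh9, the heavy chain of non-muscle myosin, reached 0.48, and Plec, which links intermediate filaments, 0.37. Cltc, the clathrin heavy chain, reached 1.03, and Glg1, a Golgi glycoprotein, 0.81. Of 43 dyneins, spectrins and giant linkers 39 were higher and 1 lower. The median was 0.396, but only 0.034 above genes of the same abundance. Clasp2, which stabilises microtubule ends, had 207.7, 206.6 and 202.8 CPM in IMP1 IP against 104.8, 104.0 and 98.57 in IgG IP (1.01), and its paralog Clasp1 was the 1 lower member (-0.20). The spectrin Sptan1 (0.72) and the lipid transfer protein Vps13a (0.71) were higher as well. Of 33 kinesin motors 25 were higher and 3 lower (median 0.384, and 0.24 above genes of the same abundance). Kifap3 (0.86), Kif11 (0.77) and Kif5b (0.72) led, and Kif5a was lower (-0.77) at about 1 CPM.

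Of 30 actin isoforms and small regulators 13 were lower and 7 higher, none of the 7 under every scaling, with a median of -0.108 (0.241 below genes of the same abundance) that came to -0.064 without IgG IP 3. Actg1, cytoplasmic gamma-actin, was at 6.305, 6.037 and 6.112 CPM in IMP1 IP and 11.86, 13.6 and 12.85 CPM in IgG IP (log2 fold change -1.05, adjusted p = 5.66e-12). Actg1 has many processed pseudogenes, so unique counting may assign few of its reads. The actin-sequestering Tmsb4x (-0.72) and Tmsb10 (-0.46) and the actin-binding Tagln2 (-0.71) were lower as well.

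Of 12 LDL receptor family members 11 were higher, 9 of them under every scaling, and none was lower (median 0.468, and 0.215 above genes of the same abundance). Vldlr, a receptor of lipoproteins and reelin, led at 455.3 ± 3.0 CPM against 211.7 ± 3.36 (1.104), followed by Sorl1 (0.80), Lrp2 (0.77) and Lrp12 (0.68). Of 35 receptor tyrosine kinases 26 were higher, 10 of them under every scaling, and 4 lower (median 0.306, and 0.121 above genes of the same abundance), with the hepatocyte growth factor receptor Met at 1556, 1590 and 1626 CPM against 858.1, 842.0 and 836.8 (0.91) and Kdr also at 0.91. Csf1r (-0.75) and Epha5 (-0.78) were lower, both under 4 CPM on average in each group. Of 19 Wnt receptors 14 were higher, 5 of them under every scaling, and 2 lower (median 0.309, and 0.176 above genes of the same abundance), led by Fzd6 (0.71), Fzd4 (0.62), Lrp6 (0.58) and Ror2 (0.55). Of 27 plexins, neuropilins and semaphorins 14 were higher, 4 of them under every scaling, and 3 lower. Their median was 0.178 (0.095 above genes of the same abundance) and turned negative under total counts without the 3 collectors. The guidance ligand Sema3a (0.80), Sema3g (0.57) and Plxnb2 (0.44) were higher, and Plxnc1 was lower (-1.50). Of 30 ABC transporters 19 were higher, 10 of them under every scaling, and 3 lower. Their median was 0.274 (0.225 above genes of the same abundance) and also turned negative without the collectors. After Abca5 came the drug exporters Abcb1b (0.84) and Abcc4 (0.80), and Abcg4 was lower (-0.88).

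The insulin-like growth factor (IGF) system gave its name to the protein family. Igf2 itself could not be compared, since it had 5, 2 and 2 counts in IMP1 IP and 3, 6 and 9 in IgG IP. The clearance receptor Igf2r was higher, at 3367, 3384 and 3375 CPM in IMP1 IP against 1904, 1901 and 1896 in IgG IP (log2 fold change 0.83, SE 0.0174, adjusted p = 1.31e-33). The signalling receptors Insr (0.27) and Igf1r (0.11) were higher with TMM, and both turned negative under total counts without the 3 collectors, Igf1r also under upper quartile and total count scaling. The median of the 4 tested was 0.188, but 0.22 below genes of the same abundance, and it turned to -0.11 under total counts without the 3 collectors. Igf1 was lower at 8.76 ± 0.91 CPM against 13.71 ± 1.46 (-0.65). Of 5 IGF-binding proteins tested, Igfbp5 was lower (-1.44, at 2.405 CPM against 6.492 on average), Igfbp7 was higher with TMM (0.35), and Igfbp3 (0.03), Igfbp4 (-0.11) and Igfbp6 (0.16) were not called. Their median of 0.029 ran from 0.002 (without IgG IP 1 or IMP1 IP 1) and 0.011 (IMP1 IP 3) to 0.067 (IMP1 IP 2) and 0.098 (IgG IP 3). Of 23 signal transducers downstream 15 were higher and 1 lower (median 0.285, and 0.055 below genes of the same abundance), with Mtor (0.64), Pik3cb (0.64), Tsc2 (0.57) and Rictor (0.55) leading.

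The IMP mRNAs and the partners of IMP1 showed no common direction. Igf2bp1 was at 176.4, 182.6 and 179.6 CPM in IMP1 IP and 144.9, 146.6 and 147.3 in IgG IP, or 0.30 on the log2 scale with TMM, which came to -0.002 under total counts without the 3 collectors. Igf2bp2 was lower, at 50.27, 53.03 and 60.48 CPM against 87.08, 86.07 and 88.87 (-0.68), and Igf2bp3 was not called (-0.05). Of 16 reported IMP1 ligand messages tested 8 were higher and 5 lower, with a median of 0.124 that turned negative under 3 of the 6 scalings and, relative to genes of the same abundance, to -0.035. Without IMP1 IP 3 it was 0.217. Of those the rule names, Abcb1b was higher (0.84), and Hmga2, an architectural chromatin protein, was lower at 195.8, 198.0 and 210.6 CPM against 330.1, 315.2 and 315.1 (-0.67). Mapt (-1.66) and H19, a long non-coding RNA of the Igf2 locus, were lower but lay under 2 CPM on average, and the libraries of H19 overlapped (0.8283 CPM against 1.686). Beta-catenin, Ctnnb1, was higher (0.65) and beta-actin, Actb, lower at 1540, 1549 and 1575 CPM against 1805, 1825 and 1852 (-0.23), both named after their values were seen and both holding their direction under every scaling.

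Messages of proteins reported to share granules with IMP1 were evenly divided, 11 of 27 higher and 12 lower, with a median of 0.009 (0.255 below genes of the same abundance) that ran from -0.031 (without IMP1 IP 1) to 0.029 (without IgG IP 2). Hnrnpa1 (-0.84), Ybx1 (-0.69) and Hnrnpa2b1 (-0.58), which package messages, were lower, and G3bp2 (0.56), of stress granules, was higher. Of 15 writers, erasers and readers of N6-methyladenosine, the mark IMP proteins can read, 8 were higher and 4 lower. The reader Ythdc2 (0.97) and the writer subunits Virma (0.80) and Mettl3 (0.50) were higher, the last not under every scaling, and the writer subunit Zc3h13 was lower at 51.75 ± 1.81 CPM against 96.1 ± 0.877 (-0.89).

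Chromosome and translation factors followed. Of 8 condensin subunits 7 were higher, all 7 under every scaling, with a median of 0.524 (0.232 above genes of the same abundance). Ncaph (0.83), Ncapg2 (0.69), Ncapd2 (0.68), Smc2 (0.53), Ncapd3 (0.52), Ncapg (0.49) and Smc4 (0.40) were higher, and Ncaph2 (0.04) was not called. Of 16 cohesin genes 10 were higher and 4 lower, with Stag1 (0.85), Pds5b (0.78) and Stag2 (0.50) behind Pds5a. The cohesin median was 0.222, but 0.003 below genes of the same abundance. Of 20 MCM and origin licensing genes 12 were higher and 4 lower, led by the helicase subunits Mcm6 (0.81), Mcm3 (0.79), Mcm4 (0.73) and Mcm2 (0.61). Of 23 cytosolic aminoacyl-tRNA synthetases 19 were higher and 1 lower (median 0.446, and 0.198 above genes of the same abundance), led by Lars (0.97), Eprs (0.92), Yars (0.85) and Gars (0.79). Of their 17 mitochondrial counterparts 8 were higher and 3 lower (median 0.164, and 0.214 above genes of the same abundance), with Lars2, Iars2 (0.66), Rars2 (0.43) and Aars2 (0.37) leading.

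**Figure D5:**
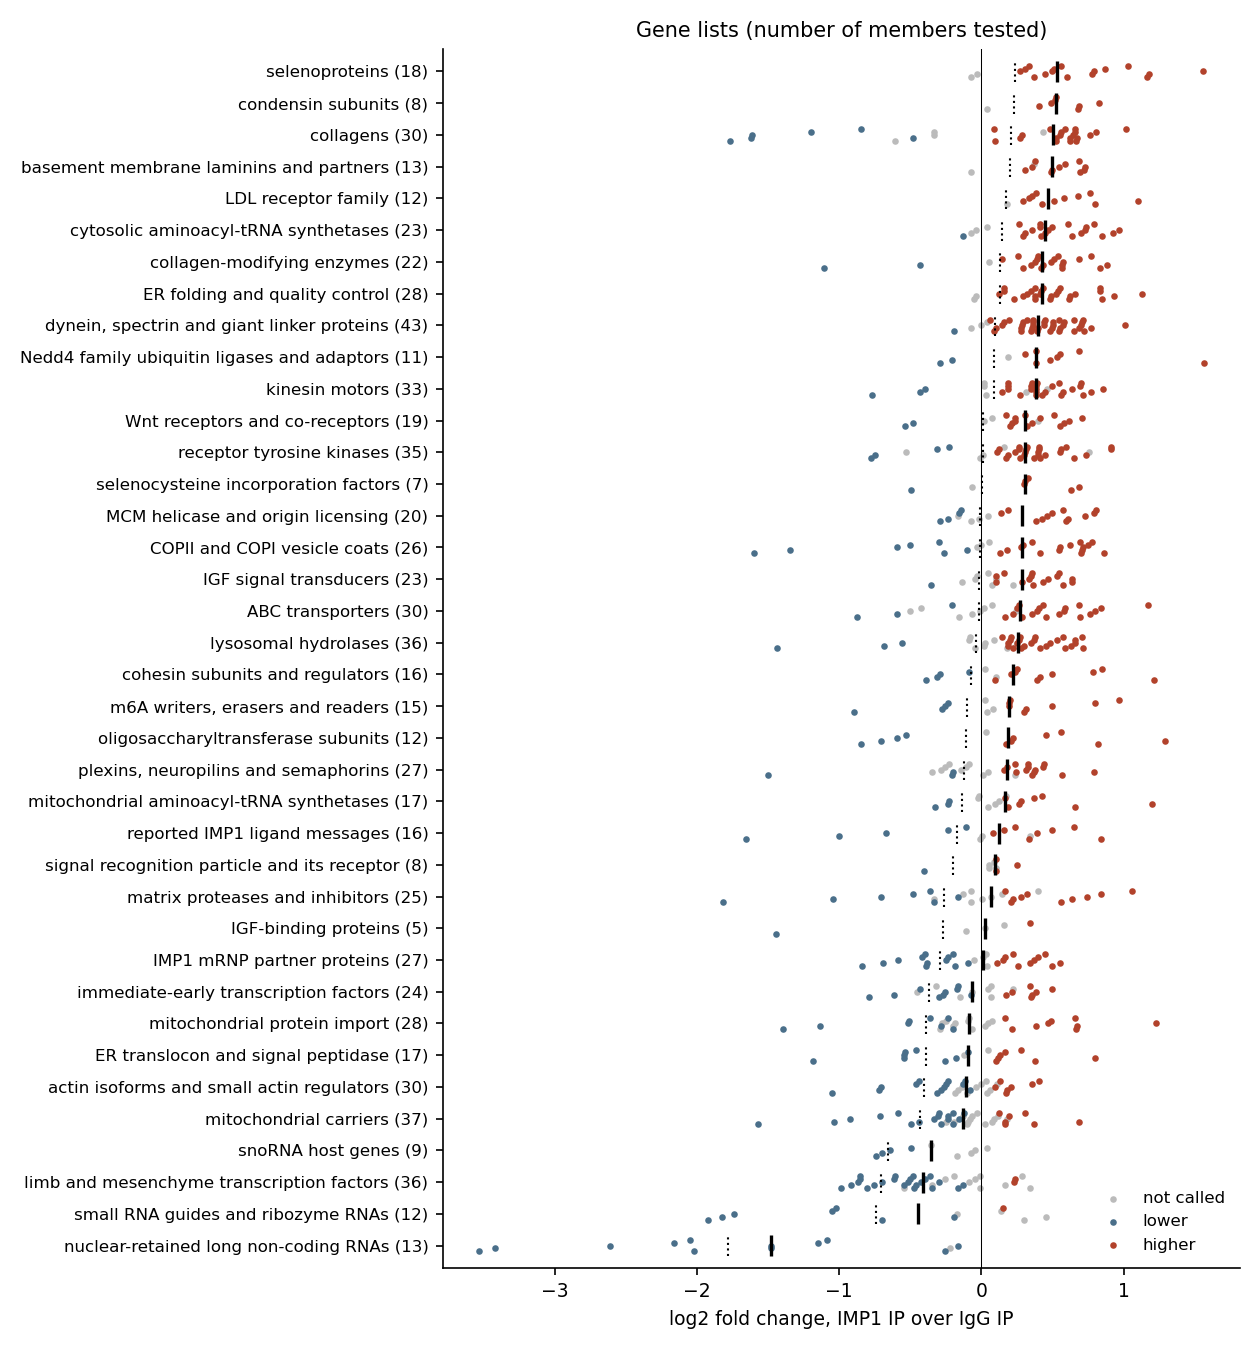
Each row is a gene list with the number of members tested, each point the log2 fold change, IMP1 IP over IgG IP, of 1 member with TMM scaling (red higher, blue lower, grey not called). Solid bars mark the list's median and dotted bars its median under total counts without 3 ribosomal RNA collectors. That scaling lowers the lists largely together, so several small positive medians turn negative.

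Nuclear non-coding RNAs were among the genes lowest in IMP1 IP. Neat1, which scaffolds paraspeckles, had 60.73, 62.79 and 61.41 CPM in IMP1 IP and 665.8, 655.4 and 657.8 CPM in IgG IP (log2 fold change -3.42, SE 0.0273). Malat1, of nuclear speckles, had 1461, 1442 and 1450 CPM against 6055, 5938 and 6024 (-2.05). Kcnq1ot1 (-3.53), Xist (-2.61), Meg3 (-2.16) and Airn (-2.02), RNAs of imprinting and X inactivation, were lower as well, as were Scarna2 (-1.82), a guide RNA of Cajal bodies, and Dleu2 (-1.54). The libraries of the 2 groups did not overlap for any of these, which is no added result, since they were chosen as the lowest called. In the list of nuclear-retained RNAs 12 of the 13 tested were lower and none was higher (median -1.482, and -1.206 relative to genes of the same abundance). Across the 493 lncRNA genes of RefSeq that were tested, 367 were lower (74.4%) and 8 were higher. Lower were 35% of all genes and 29.6% of protein-coding genes. This class was not matched by abundance, and in the least abundant decile of protein-coding genes 44.1% were lower. Scarce genes of the class could also pass the filter on their level in IgG IP alone, which favours calls of lower. The part of this in the 74.4% was not tested. Tug1, an abundant long non-coding RNA found in both nucleus and cytoplasm, was an exception. It had 196.5, 201.5 and 215.4 CPM in IMP1 IP against 138.2, 136.1 and 130.7 in IgG IP (log2 fold change 0.60) and was higher under every scaling.

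Of 12 guide and ribozyme RNAs tested 7 were lower (median -0.444, and 0.685 below genes of the same abundance). Without 1 library the median ran from -0.152 (without IgG IP 3), -0.17 (IgG IP 2) and -0.213 (IgG IP 1) to -0.727 (IMP1 IP 1). The 1 higher, Rpph1 of ribonuclease P, had overlapping groups and turned to -0.142 under total counts without the collectors. Scarna9 (-1.92), Scarna2, Vaultrc5 (-1.74) and Scarna13 (-1.05) were lowest. Of 9 snoRNA host genes, which are long non-coding genes, 4 were lower, near the 35% of all genes, and none was higher. Their median was -0.357, but only 0.08 below genes of the same abundance. The 4 were Snhg17 (-0.74), Snhg20 (-0.70), Gas5 (-0.64) and Snhg6 (-0.50).

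The 8 microRNA genes tested are shown by sequence because they divide into 2 higher and 6 lower. Counts per gene do not tell a mature microRNA from its hairpin or from a longer transcript over the locus. Their 12 mature arms carry 12 different seeds. The strongest gain and the 3 lowest are given with RefSeq sequences on GRCm38.p6, 5′ to 3′, with the seed (bases 2 to 8) in capitals.
mmu-miR-6236: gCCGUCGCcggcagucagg
mmu-miR-5125: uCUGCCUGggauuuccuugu
mmu-miR-23a-3p: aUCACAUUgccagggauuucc
mmu-miR-763: cCAGCUGGgaagaaccaguggc

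Mir6236 (chr9:110281353-110281371, plus strand) had 702, 299 and 307 counts in IMP1 IP and 77, 61 and 60 in IgG IP. Its log2 fold change was 2.41 (SE 0.212, edgeR adjusted p = 3.21e-13) and came to 1.93 without IMP1 IP 1. Its locus can collect ribosomal RNA reads. Mir763 (chr10:120448052-120448073, minus strand) lies within the span of Hmga2 and had 10, 3 and 3 counts against 45, 38 and 39 (-3.20). Mir23a (-1.80) and Mir5125 (-1.44) were lower. Every library of IgG IP exceeded those of IMP1 IP in these 3 genes, which were chosen as the lowest, so this is no added result.

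Among protein-coding genes the lowest was Spaca6, a sperm protein, at 21.46, 22.79 and 23.17 CPM in IMP1 IP against 140.9, 126.2 and 128.0 in IgG IP (log2 fold change -2.55, SE 0.048). Next came Cacng7 (-1.51), a calcium channel subunit, Arf3, the RNA-binding Taf15 (-1.32), the scaffold Dlg4 (-1.28) and Trp53inp2 (-1.21), a nuclear factor that moves to autophagosomes. Cyb5r3 (-1.17), an ER reductase, Gabbr1 (-1.16), a GABA receptor, Rrbp1 (-1.14), which holds ribosomes on the ER, Tmem47 (-1.12) and Myadm (-1.11) completed the lowest group. The bone morphogenetic protein antagonist Grem1 was the most abundant of them, at 710.8, 753.4 and 757.7 CPM against 1652, 1613 and 1580 (-1.12). Every gene of this group was called lower under every scaling, as nearly all lower genes were. Separation of the libraries with TMM was a condition for choosing them and is no result.

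The largest losses in CPM were Gm26917 (4800 ± 644 against 104000 ± 5280), Malat1, Grem1 and Neat1. The osmotic stress factor Nfat5 (-0.76), Xist, the proteoglycan Bgn (-0.95), caldesmon, Cald1 (-0.50), the zinc finger factor Zbtb20 (-1.03) and a gene without a symbol, ENSMUSG00000045999 (-4.17), completed the 10. Of 36 limb and mesenchyme transcription factors tested, 23 were lower and 2 higher (median -0.408, and 0.334 below genes of the same abundance). All 23 stayed lower under every scaling, as nearly all lower genes did. Foxp1 (-0.91), Meis2 (-0.86) and Emx2 (-0.85) led, with Lhx9 (-0.98) under 1 CPM on average. Immediate-early factors were mixed, 7 of 24 higher and 9 lower (median -0.068, and 0.106 below genes of the same abundance). That median came to -0.008 without IgG IP 1 and turned to 0.013 without IMP1 IP 3. Egr1 (-0.79), Fosb (-0.62) and Maff (-0.43) were lower and Ier2 (0.49) was higher. Mitochondrial genes were mixed as well. Of 28 import genes 9 were higher and 8 lower (median -0.089, and 0.017 below genes of the same abundance), and without IgG IP 1 the median was -0.144, without IgG IP 3 -0.05 and without IMP1 IP 1 -0.058. Timm23 (-1.39) and Timm10b (-1.13) were lower and Timm8a1 (1.23) and Tomm70a (0.67) higher, all but the last under 4 CPM on average. Of 37 carriers 7 were higher and 17 lower (median -0.131, and 0.136 below genes of the same abundance), led by Slc25a35 (-1.57), Slc25a29 (-1.04), Slc25a23 (-0.92) and Slc25a27 (-0.71).

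Genes seen in 1 group alone were scarce ones. With no count in any IMP1 IP library, 534 genes had counts in all 3 IgG IP libraries, led among named genes by Cep112os1 (11, 2 and 10 counts), Mir3108 (2, 7 and 12) and Mir3092 (8, 4 and 8). In the opposite direction there were 45, led by Frmpd1 (2, 3 and 1 counts), Fam169b (2, 2 and 2) and Htr7 (1, 2 and 1). A count of 0 allows up to 3 counts in a library, or 0.158 to 0.253 CPM, for counting error only, and most of these genes lie near that level.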

How the data were processed

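RNA from IMP1 and IgG immunoprecipitates was sequenced from TruSeq libraries, per the labels. The deposited values are raw read counts per Ensembl gene, made by the authors with STAR and HTSeq on mm10, per the submitters' processing notes. Versions and the strand setting are not given in the sources used here. Antisense and overlapping genes therefore cannot be separated. Reads counted with no unique place or gene stand in 5 tally lines, which were removed, and the records in genes were on average 68.35% of all records in IMP1 IP and 51.95% in IgG IP.

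Symbols were assigned by Ensembl gene from a separate list of gene names, to 42462 of 43629 genes. Types and spans came from RefSeq (GRCm38.p6), where 32737 genes matched by that symbol and 547 by synonym. Counts were fitted with edgeR 4.0.16 (filterByExpr, TMM, quasi-likelihood test, two-sided, Benjamini-Hochberg over all 13573 genes tested) in R 4.3.3 on the 6 libraries alone, and a call is an adjusted p under 0.05. The procedure was tested on simulated data with few genes changed, evenly up and down, and without the difference in make-up seen here. That test cannot speak to the choice of scaling. A count of 3 equals 0.158 to 0.253 CPM. Replicate numbers did not pair libraries (correlations of deviations -0.0712, 0.0111 and -0.0581).

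The members and the 47 lists were chosen with earlier results of these data known. Named are the 12 abundant protein-coding genes with the highest and the 12 with the lowest fold change (average log2 CPM at least 5, no overlap), the 10 largest gains and losses in CPM, up to 8 non-coding genes each way (average log2 CPM at least 3), the leading 2 to 4 members of each list, every member of lists with 8 or fewer tested where described in full, and the 3 most abundant genes seen in 1 group. Predicted genes and pseudogenes were passed over. Alternatives were other scalings, filters, tools (DESeq2 1.42.0, limma 3.58.1), libraries and a replicate block. Bins by protein features were planned and not run, since no protein sequences were used here. Not every gene that the rule names is reported here.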

Additional observations from a re-analysis of the deposited data

How the results depend on the processing

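Scaling and filtering moved the counts of calls, and the cause was not tested. The 4566 higher genes became 2079, and the 4752 lower genes 8428, under total counts without the 3 ribosomal RNA collectors. The 74 genes at least 2-fold higher became 26 with upper quartile scaling, 29 with total counts, 11 without the collectors, 140 with no filter and 18 with a filter of 10 CPM in 3 libraries. The 1593 at least 2-fold lower became 3063 with no filter and 188 with that filter, which tests fewer scarce genes. DESeq2 called 4146 higher and 3841 lower, limma voom 4536 and 4739, and a fit with all 9 IP libraries 4457 and 4491. With the replicate block, 4522 were higher and 4660 lower, of which 4514 and 4649 were also called without it, with 73 and 1596 past 2-fold. Leaving out 1 library at a time gave 4467 to 4560 higher, 4526 to 4709 lower, and 70 to 89 and 1817 to 1851 past 2-fold.

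Total counts without the collectors turned these medians negative: oligosaccharyltransferase -0.107, vesicle coats -0.011, lysosomal hydrolases -0.04, plexins -0.12, ABC transporters -0.015, IGF transducers -0.013, m6A factors -0.103, cohesin -0.075, IGF ligands and receptors -0.11, MCM -0.009 and mitochondrial synthetases -0.133. That scaling shifted the median of all genes by -0.301 and these lists by nearly the same amount. Any small positive median was therefore bound to turn negative, while its place relative to all genes hardly changed. The same scaling gave Rpph1 -0.142, Srpr -0.045, Insr -0.03 and Igf2bp1 -0.002. In the order upper quartile, total counts, total counts without collectors and 10 CPM filter, the values were -0.056, -0.043, -0.202 and -0.043 for the signal recognition particle, -0.08, -0.067, -0.261 and -0.002 for matrix proteases, -0.122, -0.109, -0.268 and -0.116 for IGF-binding proteins, and -0.143, -0.129, -0.289 and -0.137 for IMP1 partner proteins. In that order they were -0.047, -0.033, -0.193 and -0.041 for Srp72, -0.049, -0.035, -0.195 and -0.043 for Srp68, and -0.043, -0.03, -0.19 and -0.038 for Igf1r. Reported ligands came to -0.027, -0.014 and -0.174 under the first 3. TMM from protein-coding genes gave -0.022 for IGF-binding proteins and -0.043 for partner proteins. Leaving out 1 library at a time, partner proteins ranged from -0.031 (without IMP1 IP 1) to 0.029, negative also without IMP1 IP 3 (-0.007), and immediate-early factors from -0.07 to 0.013 (without IMP1 IP 3). The latter came to 0.006 with no filter. Relative to genes of the same abundance, a comparison chosen after seeing the data, medians turned negative for the signal recognition particle (-0.01), oligosaccharyltransferase (-0.151), IGF-binding proteins (-0.021), IGF ligands and receptors (-0.22), IGF transducers (-0.055), reported ligands (-0.035), partner proteins (-0.255), m6A factors (-0.076) and cohesin (-0.003). Of 213 named genes, 7 reversed and 18 lost their call under some alternative. Depth limits genes near 3 counts in a library, and intervals there cover counting error only.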

Other observations

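Families chosen after their values were seen, by the start of the gene symbol or by RNA type, are given as counts and medians with no test. Over all genes tested 33.6% were higher and 35% lower, and in the most abundant decile of protein-coding genes 82.0% were higher. Of 23 nuclear transport receptors 19 were higher in IMP1 IP and 3 lower (median log2 fold change 0.511, and 0.163 above genes of the same abundance). Xpot, the exporter of tRNA, had 740.8 CPM in IMP1 IP against 346.7 in IgG IP, and the importin Ipo5 had 974.4 against 474.2. Kpna2 was lower (-0.28). Of 28 nucleoporins 19 were higher and 4 lower (median 0.342, and 0.124 above genes of the same abundance), with Nup205 at 1312 CPM against 671.3. Of 10 Dock proteins, exchange factors of Rac and Cdc42, 8 were higher and none lower (median 0.656, and 0.499 above genes of the same abundance), with Dock1 at 322.6 CPM against 159.4. All 8 P-type pump subunits tested were higher, 5 of them under every scaling (median 0.514, and 0.245 above genes of the same abundance). The calcium pumps Atp2b1 (0.83) and Atp2a2 (0.66) led. Of 45 DEAD/H-box helicases 30 were higher and 6 lower (median 0.291, and 0.164 above genes of the same abundance). Dhx36, which unwinds G-quadruplexes, had 426.4 CPM against 201.8.

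Both sides of the ubiquitin system were measured. Of 45 ubiquitin-specific proteases 30 were higher and 9 lower (median 0.344, and 0.19 above genes of the same abundance), led by Usp33 (0.93) and Usp47 (0.83). Of 33 ubiquitin-conjugating enzymes 6 were higher and 18 lower (median -0.165, and 0.202 below genes of the same abundance), among them Ube2v1 (-1.93), Ube2e1 (-1.06) and Ube2n (-0.87). Of 20 hnRNP genes 5 were higher and 12 lower (median -0.155, and -0.419 relative to genes of the same abundance), with Hnrnpa1 (-0.84) among the lowest. Of 19 gamma protocadherins 12 were lower and none higher (median -0.634, and -0.455 relative to genes of the same abundance). These genes share their last exons, and counts may be divided between them.

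Of 45 replication-dependent histone genes, whose messages end in a stem-loop in place of a poly(A) tail, 18 were higher and 11 lower. Their median was 0.12, and 0.389 above genes of the same abundance, with Hist1h1e (1.15), Hist1h2ac (0.99) and Hist1h1d (0.91) leading. Of 14 snRNA genes 8 were higher and 4 lower (median 0.501, and 0.774 above genes of the same abundance). Many of them are near-identical copies between which reads cannot be assigned with confidence. Rn7sk, the RNA that holds back the elongation factor P-TEFb, was lower (-0.70), as was Rnu3a (-0.83). Bcl11b, a zinc finger factor, had 10.62, 6.984 and 4.599 CPM in IMP1 IP and 0.9873 CPM on average in IgG IP (log2 fold change 2.90), the 3 IMP1 IP libraries lying far apart.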
